A study of Arabidopsis thaliana with 6 samples.

Results

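The genes described here build the cuticle, the waterproof coat of wax and cutin that the outermost cell layer lays down on young flowers. They were chosen by name: 46 Arabidopsis thaliana loci for wax and cutin enzymes, lipid exporters and their regulators, of which 44 are among the 17675 genes of the deposited table and 2 (the regulators SHN2, AT5G11190, and MYB106, AT3G01140) are not and were not analysed here. The one measured property the choice uses is presence in that table. Because the list was drawn up when results of this comparison were already known, its counts and p-values below describe the genes and support no statement about the list as a whole.

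RNA was sequenced from inflorescences of 3-week-old plants of the genotype ARF3:ARF3-GR arf3-29, in 3 libraries named DMSO and 3 named DEX; the labels also call the tissue floral meristems. ARF3 is an auxin response factor of the floral meristem, arf3-29 is the mutant allele of it that all 6 libraries carry, and ARF3-GR is its fusion to the steroid-binding domain of the glucocorticoid receptor, which keeps a partner protein inactive until dexamethasone (DEX) is given; as its name is usually read, the ARF3 promoter drives it. DEX was applied to inflorescences at 10 µM, dissolved in DMSO with 0.015% Silwet L-77, and flowers past stage 6 were dissected away. This treatment text stands with all 6 libraries, so the split into DMSO and DEX rests on the library titles and the stated design of the series, and whether the DMSO plants also received Silwet is not stated. Every library carries ARF3-GR, so effects of the steroid itself and of the activated fusion cannot be told apart, and for how long DEX acted is not stated in the labels.

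Cuticle lipids start as plastid fatty acids. For wax, an elongase of 4 enzymes in the endoplasmic reticulum lengthens the acyl chain in repeated cycles, and the very long chains then become alkanes, secondary alcohols and ketones on one branch and primary alcohols and wax esters on the other. For cutin, cytochromes P450 of the CYP86A and CYP77A families add hydroxyl groups to shorter acyl chains, GPAT enzymes join the products to glycerol, transporters of the ABCG family carry them out of the cell, and extracellular enzymes link them into a polyester. Loss of several of these genes makes floral organs fuse to one another, since the cuticle keeps neighbouring epidermal surfaces apart.

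The libraries held 10703769 to 14469527 reads over the listed genes, so that 1 read equals 0.0691 to 0.0934 reads per 1000000 reads (RPM), the unit of the levels below. Differences are log2 fold changes of DEX against DMSO on the log2(RPM + 1) scale, which understates the change of weak genes, with limma's 95% intervals and p-values adjusted by the Benjamini-Hochberg method over all 17675 genes. "Fell" and "rose" stand for an adjusted p under 0.05, and means are given ± SD with n = 3 libraries. DEX-3 stood apart from the other DEX libraries, both for these genes and in its scatter over the whole table. Of the 44 genes 34 were below the DEX mean in it, against 14 in DEX-1 and 8 in DEX-2. Their median log2 deviation from the DEX mean in DEX-3 was -0.126, against 0.002 over all listed genes. Floral genes marked the tissue in every library (summed level of AP1, LFY, AP3, PI and SEP3 of 799 to 855 RPM in DMSO and 884 to 948 RPM in DEX). The 3 listed of 7 markers of the tapetum, the pollen-feeding layer of older anthers, summed to 4.74 to 6.72 RPM in DMSO and 14.4 to 16.1 RPM in DEX. Of these, AMS reached 1 RPM in the DEX libraries alone and ACOS5 in 1 DMSO library, so the minimum for being listed favours higher DEX values, whereas A9 passed it in all 6 libraries with 3.62 to 4.40 RPM in DMSO and 8.02 to 10.08 RPM in DEX.

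Most of these wax and cutin genes had less RNA in DEX. Among the 6 listed regulators 1 fell and 1 rose, and no contrast between regulators and the other genes was tested. Of 9 further regulators of epidermis and wax, outside this choice, 5 fell and 3 rose. ATML1, PDF2 and HDG2 of these 9 are also among the epidermal markers below. Of the 44 genes 35 fell, 1 rose and 8 did not pass, with a median log2 fold change of -0.98. Over all listed genes 57.7% passed in either direction, 28.1% fell, 29.6% rose and the median was 0.00. By at least 1 on the log2 scale 21 of the cuticle genes fell, against 5.23% of all genes. In 35 of the 44 the 3 DEX values lay below the 3 DMSO values, which held for 30.7% of all genes, and in 1 they lay above, which held for 32.1%. Summed over the 44 genes, RNA went from 8216, 8513 and 8428 RPM in DMSO to 4404, 4481 and 3899 RPM in DEX, so the DEX mean was 50.8% of the DMSO mean. All 44 reached 1 RPM in every library, so none is in the table through 1 group alone.

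The epidermis, the cell layer that makes the cuticle, is 1 tissue among several in these samples, and in bulk RNA fewer epidermal cells and less RNA per epidermal cell cannot be told apart. Of 5 epidermal markers 4 fell and none rose. Their summed level was 3537 to 4075 RPM in DMSO and 1444 to 2306 RPM in DEX, most of it from PDF1 (AT2G42840), an epidermal cell wall protein that fell from 3384 ± 289 to 1729 ± 508 RPM. Without PDF1 the other 4 summed to 352 to 360.3 RPM in DMSO and 258 to 300.5 RPM in DEX, a mean of 77.9% of DMSO. ATML1 (AT4G21750), the homeobox factor that specifies the layer, had 160 ± 2.24 and 145 ± 15.7 RPM and did not pass (adjusted p = 0.107). The part of these markers and of the tapetum markers in the cuticle values was not tested.

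**Figure D1:**
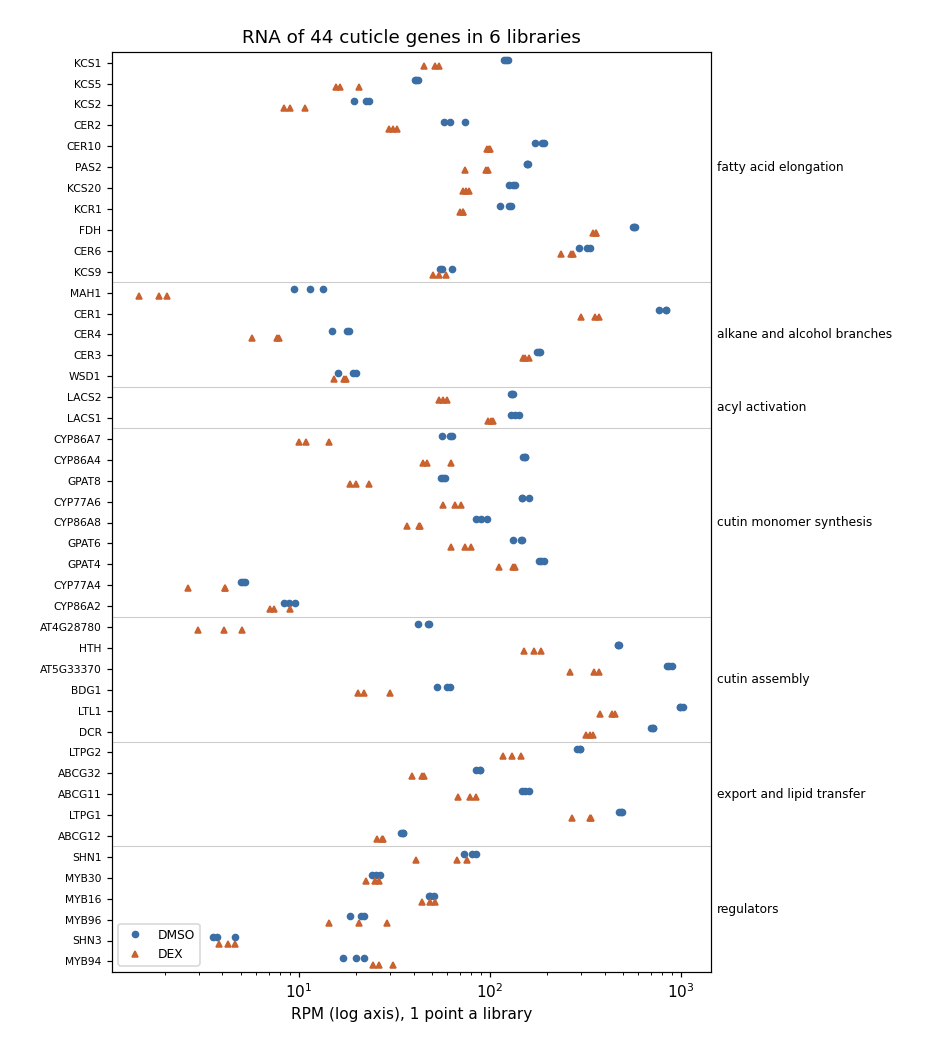
RPM of the 44 listed cuticle genes on a log axis, 1 blue circle for each DMSO library and 1 orange triangle for each DEX library, grouped by role. DEX values lie below the DMSO values for 35 genes and above them for MYB94, and the groups overlap for the other 8, of which 5 are regulators.

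The levels themselves span a wide range. Divided by exon length, LTL1 was highest in DMSO at 639 ± 16.1 RPM per kb, followed by AT5G33370 at 557 ± 19.7, LTPG1 at 496 ± 8.05, DCR at 365 ± 6.67, LTPG2 at 307 ± 6.31 and FDH at 253 ± 1.69 RPM per kb. Next came CER1 at 227 ± 10.3 and HTH at 218 ± 2.24 RPM per kb, neighbours that differed by less than the SD of CER1. At the low end stood CYP86A2 at 4.06 ± 0.262, SHN3 at 3.73 ± 0.555 and CYP77A4 at 2.90 ± 0.0822 RPM per kb, the first of these differing from SHN3 by less than the SD of SHN3. Genes of cutin assembly gave the largest summed level of the role groups, 3103 to 3251 RPM in DMSO.

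Cutin assembly had the lowest median of the role groups, and its 6 genes all fell (median -1.34, range -3.25 to -1.09). AT4G28780 encodes a GDSL enzyme, the family to which the cutin-polymerising enzymes belong, and had 42.3, 48.2 and 47.9 RPM in DMSO and 2.99, 5.05 and 4.06 RPM in DEX. Its log2 fold change was -3.25 (95% interval -3.57 to -2.92) and is given with no p-value, because this gene was already known as one of the strongest changes in the data. The DEX level was 8.74% of the DMSO level.

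The other GDSL genes are far more abundant. LTL1 (AT3G04290) had 992, 1035 and 991 RPM in DMSO and 437, 452 and 381 RPM in DEX (log2 fold change -1.25, interval -1.39 to -1.11). AT5G33370 had 847, 908 and 867 RPM in DMSO and 353, 372 and 263 RPM in DEX (log2 fold change -1.42, interval -1.62 to -1.22). In both genes the groups were separate and DEX-3 was the lowest of the 6 libraries. AT4G28780 made up 1.91 ± 0.107% of the RPM per kb of the 3 GDSL genes in DMSO and 0.426 ± 0.111% in DEX, and its share did not overlap between the groups. Coding sequences of the 3 are 67.7% to 72.3% identical.

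HTH (AT1G72970), an oxidoreductase whose loss fuses floral organs, had 472, 478 and 469 RPM in DMSO and 171, 186 and 152 RPM in DEX (log2 fold change -1.48, SE 0.0698, adjusted p = 8.36e-12). BDG1 (AT1G64670), an extracellular hydrolase-like protein of the epidermis, had 53.1, 62.3 and 60.1 RPM in DMSO and 30.3, 22.1 and 20.5 RPM in DEX (log2 fold change -1.25, adjusted p = 1.52e-07). DCR (AT5G23940), an acyltransferase needed for cutin, had 697, 720 and 718 RPM in DMSO and 346, 335 and 318 RPM in DEX (log2 fold change -1.09, adjusted p = 3.26e-11). For these 3 genes the groups were separate, and the DMSO libraries spread more for BDG1 (58.5 ± 4.81 RPM) than for HTH (473 ± 4.86 RPM) relative to the mean.

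In cutin monomer synthesis 7 of 9 genes fell (median -1.13), and the 2 that did not pass, CYP86A2 and CYP77A4, were the weakest of the group. CYP86A enzymes hydroxylate the end of the fatty acid chain. CYP86A7 (AT1G63710) had 63.7, 61.9 and 56.3 RPM in DMSO and 10.9, 14.4 and 10.08 RPM in DEX (log2 fold change -2.28, interval -2.54 to -2.02, adjusted p = 5.08e-11). CYP86A4 (AT1G01600) had 153, 153 and 150.1 RPM in DMSO and 44.8, 46.8 and 63.1 RPM in DEX (log2 fold change -1.56, interval -1.77 to -1.34). Here DEX-3 was the highest of the DEX libraries, unlike in most members.

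CYP86A8 (AT2G45970), known as LACERATA, had 90.5, 97.3 and 85.2 RPM in DMSO and 43.3, 42.9 and 37.0 RPM in DEX (log2 fold change -1.13, adjusted p = 6.30e-09). CYP86A2 (AT4G00360) had 8.44, 9.60 and 8.93 RPM in DMSO and 7.47, 9.05 and 7.07 RPM in DEX, with a 95% interval of the log2 difference from -0.51 to 0.15. An annotated lncRNA on the opposite strand shares 35.3% of its exon bases. Shares within the family, like the ratios of gene pairs below, are given as descriptions with no test: CYP86A7 gave 23.5 ± 0.851% of the family's RPM per kb in DMSO and 13.1 ± 2.58% in DEX, CYP86A2 2.99 ± 0.187% and 7.49 ± 1.04%, both without overlap. The share of CYP86A4, 48.2 ± 1.19% and 46.6 ± 7.06%, overlapped between the groups.

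CYP77A6 (AT3G10570), which hydroxylates the middle of the chain and is needed for the nanoridges of petals, had 148, 148 and 161 RPM in DMSO and 65.7, 57.0 and 70.5 RPM in DEX (log2 fold change -1.23, adjusted p = 8.79e-10). Its relative CYP77A4 (AT5G04660) went from 5.13 ± 0.146 to 3.62 ± 0.862 RPM and did not pass (adjusted p = 0.0693), although its groups did not overlap. In the TAIR10.1 annotation AT5G04670, a listed gene on the opposite strand, covers 100% of the exon bases of CYP77A4, so without strand the reads of the pair cannot be told apart.

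GPAT enzymes attach the finished acyl chain to glycerol. GPAT8 (AT4G00400) had 58.3, 55.5 and 56.8 RPM in DMSO and 19.9, 23.5 and 18.6 RPM in DEX (log2 fold change -1.42, interval -1.64 to -1.21). GPAT6 (AT2G38110), the GPAT of petal and sepal cutin, fell from 142 ± 7.70 to 72.4 ± 8.63 RPM, and GPAT4 (AT1G01610) from 187 ± 5.38 to 126 ± 13.1 RPM (log2 fold change -0.57, interval -0.73 to -0.41). The intervals of GPAT8 and GPAT4 do not overlap, and GPAT8 had 0.291 ± 0.00816 times the RPM per kb of GPAT4 in DMSO and 0.157 ± 0.0113 times in DEX.

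CYP86A4 and GPAT4 are next to each other on the chromosome with 0 protein-coding genes between them, and CYP86A2 and GPAT8 are separated by 3. The closest relatives within each family lie across these pairs, with coding identities of 83.4% for CYP86A4 and CYP86A2 and 83.2% for GPAT4 and GPAT8. Between the neighbours CYP86A4 and GPAT4 the P450 gene had the larger difference (-1.56 against -0.57). Between CYP86A2 and GPAT8 the GPAT gene did (-1.42, against -0.18 for CYP86A2, which did not pass).

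**Figure D2:**
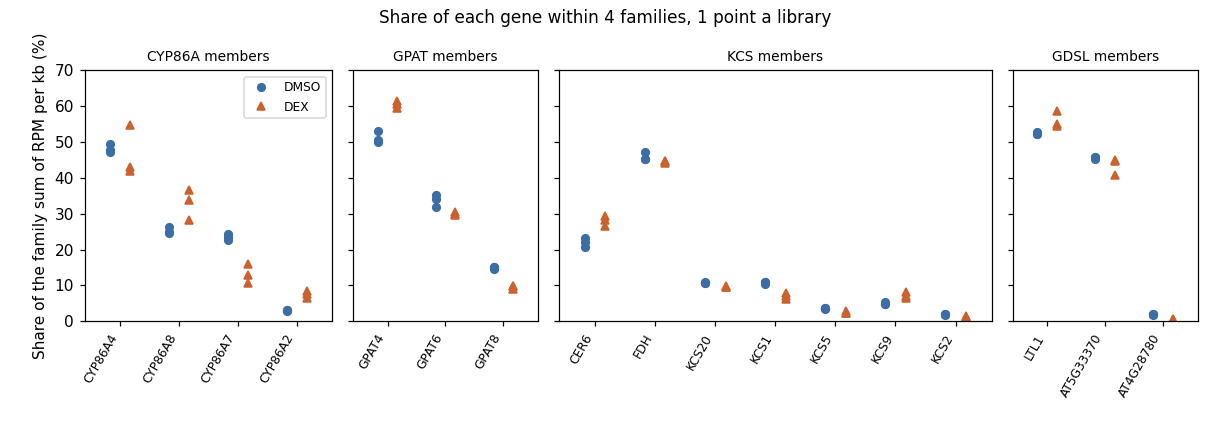
Share of each gene in the summed RPM per kb of its family, in percent, 1 point a library, for the CYP86A, GPAT, KCS and GDSL members (blue circles DMSO, orange triangles DEX). CYP86A7, GPAT6, GPAT8, FDH, KCS20, KCS1, KCS5, KCS2, AT5G33370 and AT4G28780 take a smaller share in every DEX library than in any DMSO library, and CYP86A8, CYP86A2, GPAT4, CER6, KCS9 and LTL1 a larger one.

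Wax synthesis begins with the elongase, of whose 11 genes 10 fell (median -0.82, range -1.26 to -0.08). KCS enzymes carry out the condensing step and set which chain lengths are made. KCS1 (AT1G01120) had 122, 119 and 125 RPM in DMSO and 45.6, 51.6 and 54.6 RPM in DEX (log2 fold change -1.26, adjusted p = 4.90e-10). KCS5 (AT1G25450), a close relative of CER6, had 40.7, 41.3 and 42.4 RPM in DMSO and 16.4, 20.7 and 15.7 RPM in DEX (log2 fold change -1.20, interval -1.44 to -0.96). KCS2 (AT1G04220) had 22.7, 23.3 and 19.5 RPM in DMSO and 9.06, 10.9 and 8.40 RPM in DEX (log2 fold change -1.13, adjusted p = 1.77e-06). An annotated lncRNA on the other strand shares 61.5% of the exon bases of KCS2.

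CER6 (AT1G68530), the main condensing enzyme of wax in shoots, changed little by comparison. It had 293, 336 and 323 RPM in DMSO and 273, 266 and 237 RPM in DEX (log2 fold change -0.29, interval -0.44 to -0.14, adjusted p = 0.00188). The DEX values were below every DMSO value, and its interval lies wholly above that of KCS5. KCS5 had 0.163 ± 0.00994 times the RPM per kb of CER6 in DMSO and 0.0845 ± 0.0110 times in DEX, and their coding sequences are 81.3% identical.

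FDH (AT2G26250), the elongase whose mutant fiddlehead has fused flowers, was the most abundant of the KCS genes per length and fell from 570.2 ± 3.80 to 356 ± 7.95 RPM (log2 fold change -0.68). KCS20 (AT5G43760) fell from 132 ± 4.53 to 75.4 ± 2.53 RPM, and KCS9 (AT2G16280) had 58.2 ± 4.66 and 55.0 ± 4.38 RPM, which did not pass (interval -0.27 to 0.11). The other elongase steps moved by similar amounts: the reductases KCR1 (AT1G67730) and CER10 (AT3G55360) and the dehydratase PAS2 (AT5G10480) had log2 fold changes of -0.77, -0.89 and -0.82. CER2 (AT4G24510), which helps the elongase reach the longest chains, had 57.6, 61.8 and 74.8 RPM in DMSO and 29.9, 32.8 and 31.1 RPM in DEX (log2 fold change -1.02, adjusted p = 1.44e-07). On the opposite strand an annotated lncRNA shares 19.4% of the exon bases of CER2, and the listed gene AT4G24520 shares 5.9%.

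CER1 and CER3 act together to make alkanes, the main wax class of Arabidopsis shoots, yet their RNA differed in size of change. CER1 (AT1G02205) had 773, 835 and 838 RPM in DMSO and 356, 373 and 302 RPM in DEX (log2 fold change -1.25, interval -1.40 to -1.10, adjusted p = 1.28e-10). CER3 (AT5G57800) had 182, 177 and 185 RPM in DMSO and 161, 153 and 149 RPM in DEX (log2 fold change -0.23, interval -0.36 to -0.10, adjusted p = 0.00517). The ratio of CER1 to CER3 per kb was 3.24 ± 0.172 in DMSO and 1.60 ± 0.153 in DEX, with 3.06 as the lowest DMSO value and 1.76 as the highest DEX value.

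Downstream of the alkanes, MAH1 (AT1G57750), the hydroxylase that turns them into secondary alcohols and ketones, had 13.5, 9.45 and 11.5 RPM in DMSO and 2.06, 1.87 and 1.47 RPM in DEX (log2 fold change -2.15, interval -2.55 to -1.75). The size depends on the pseudocount, being -1.27 with 5 RPM added, since MAH1 is weak in DEX. On the alcohol branch CER4 (AT4G33790), the reductase that makes primary alcohols, had 18.0, 15.02 and 18.4 RPM in DMSO and 5.70, 7.74 and 7.91 RPM in DEX (log2 fold change -1.17, adjusted p = 5.34e-06). WSD1 (AT5G37300), which joins these alcohols to fatty acids as wax esters, had 18.4 ± 2.04 and 16.8 ± 1.22 RPM and did not pass (interval -0.39 to 0.14).

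LACS enzymes activate fatty acids to their CoA esters before they enter the pathway. LACS2 (AT1G49430), tied mainly to cutin, had 133, 129.9 and 130.4 RPM in DMSO and 57.1, 60.2 and 54.2 RPM in DEX (log2 fold change -1.18, adjusted p = 2.85e-10). LACS1 (AT2G47240), tied to wax and cutin, had 143, 129.8 and 136 RPM in DMSO and 101.5, 104 and 98.2 RPM in DEX (log2 fold change -0.43, adjusted p = 4.95e-05). With almost equal RPM per kb in DMSO (ratio of LACS2 to LACS1 of 1.04 ± 0.0419), the genes stood at a ratio of 0.610 ± 0.0139 in DEX.

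All 5 genes of export and lipid transfer fell (log2 fold changes of -1.16 to -0.36). LTPG2 (AT3G43720), a membrane-anchored lipid transfer protein, had 287, 297 and 297 RPM in DMSO and 131, 146 and 117 RPM in DEX (log2 fold change -1.16, adjusted p = 5.93e-10). ABCG32 (AT2G26910), a cutin precursor transporter, had 84.7, 89.2 and 89.5 RPM in DMSO and 44.5, 45.5 and 39.5 RPM in DEX (log2 fold change -1.01, adjusted p = 1.24e-08). LTPG1 (AT1G27950) fell from 487 ± 7.91 to 315 ± 37.8 RPM and ABCG11 (AT1G17840), which exports wax and cutin lipids, from 154 ± 6.33 to 77.1 ± 8.30 RPM. ABCG12 (AT1G51500), its partner in wax export, fell from 34.9 ± 0.534 to 26.96 ± 0.989 RPM (adjusted p = 0.00342). The ratio of ABCG11 to ABCG12 per kb was 3.60 ± 0.132 in DMSO and 2.32 ± 0.177 in DEX, without overlap. A protein-coding gene on the opposite strand, AT1G17850, shares 18.6% of the exon bases of ABCG11.

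**Figure D3:**
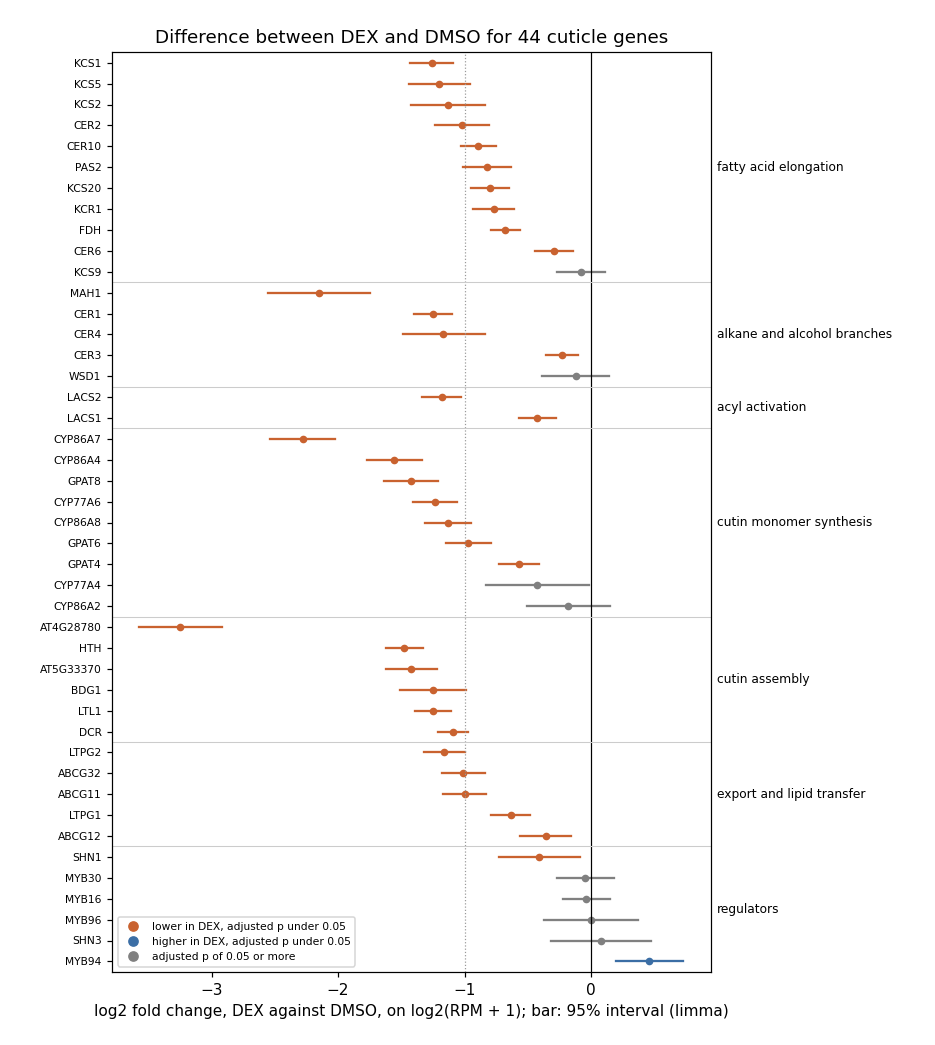
Log2 fold change of DEX against DMSO for the 44 cuticle genes (points) with 95% intervals from limma (bars), grouped by role. The solid line marks no difference and the dotted line a log2 fold change of -1. The values run from -3.25 for AT4G28780 to 0.46 for MYB94, and the regulators lie between -0.41 and 0.46.

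The regulators stood closer to the values of all genes. Of the 6 listed, SHN1 fell, MYB94 rose and 4 did not pass (median -0.02). Over all listed genes 28.1% fell, 29.6% rose and the median was 0.00. With 6 genes these counts are not read as a result about regulators. The summed level of the 6 was 187, 202 and 208 RPM in DMSO and 215, 197 and 151 RPM in DEX, which overlap. SHN1 (AT1G15360), also called WIN1, an activator of cutin and wax genes, had 73.8, 80.8 and 84.6 RPM in DMSO and 75.9, 67.8 and 41.2 RPM in DEX (log2 fold change -0.41, adjusted p = 0.0281). Its groups overlap, and the difference rests on DEX-3: without that library it was -0.15 (adjusted p = 0.0820). The call was also lost, at log2 fold changes of -0.41 to -0.37, without DMSO-2 (adjusted p = 0.0811), without DMSO-3 (0.121), with the trend left out of limma (0.142) or robust moderation added (0.189), and with DESeq2 on reads recovered from the RPM (0.221).

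SHN3 (AT5G25390), of the same clade, had 4.66, 3.74 and 3.56 RPM in DMSO and 3.83, 4.63 and 4.27 RPM in DEX, with an interval from -0.32 to 0.47. MYB16 (AT5G15310), which acts with SHN1 on cutin genes and shapes petal epidermal cells, had 48.7, 48.0 and 51.4 RPM in DMSO and 48.7, 51.8 and 44.1 RPM in DEX. Its groups overlap, and the interval of its log2 fold change runs from -0.22 to 0.15. The 34 enzyme, transfer and assembly genes that fell had log2 fold changes of -3.25 to -0.23.

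MYB30, MYB94 and MYB96 are related activators of very-long-chain fatty acid and wax genes. MYB94 (AT3G47600) had 17.1, 21.9 and 19.99 RPM in DMSO and 31.4, 26.5 and 24.6 RPM in DEX (log2 fold change 0.46, interval 0.20 to 0.73, adjusted p = 0.00399). It was the 1 cuticle gene higher in each DEX library than in any DMSO library. MYB96 (AT5G62470) had 20.7 ± 1.84 and 21.4 ± 7.26 RPM (interval -0.37 to 0.37) and MYB30 (AT3G28910) 25.6 ± 1.21 and 24.7 ± 2.05 RPM (interval -0.27 to 0.18). The DEX libraries disagreed on MYB96, with 29.0 RPM in DEX-1, 20.7 in DEX-2 and 14.5 in DEX-3. Coding sequences of MYB94 and MYB96 are 84.4% identical, so an exchange of reads between them is possible. The same limit applies to KCS20 and KCS2 (84.6%), CYP86A4 and CYP86A2 (83.4%) and GPAT4 and GPAT8 (83.2%). It also applies to CYP77A6 and CYP77A4 (81.4%) and to CER6 and KCS5 (81.3%).

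**Figure D4:**
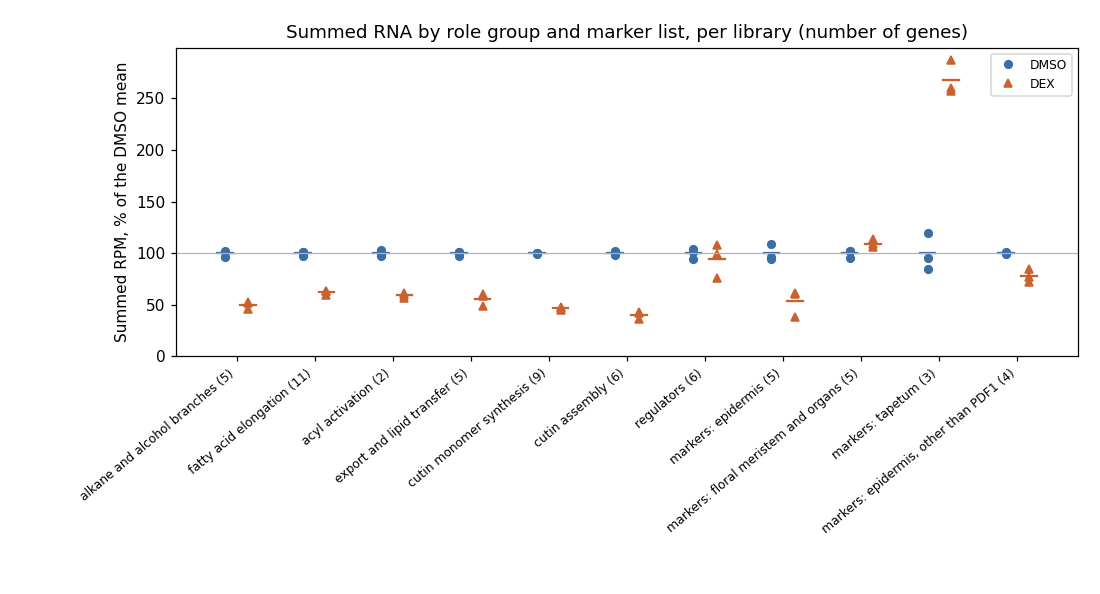
Summed RPM of each role group and marker list as a percentage of its DMSO mean, 1 point a library with the mean as a line (blue circles DMSO, orange triangles DEX), with the number of listed genes in brackets. In DEX the role groups stand between 40.5% (cutin assembly) and 62.1% (fatty acid elongation) of DMSO, the regulators at 94.3%, and the epidermal markers at 53.7%, or 77.9% without PDF1.

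Promoters were read to see what the genes share in sequence. The L1 box, bound by the epidermal homeobox factors of the ATML1 family (searched as TAAATGCA or TAAATGTA on both strands), lies between 250 bases before and 50 bases after the annotated start of 8 of the 44 genes (18.2%), and of 5.24% of 17369 listed protein-coding genes. Auxin response elements, the sites of auxin response factors, were searched in both strands as TGTCTC, found in 5 genes (11.4%, against 13.3% of all), and as TGTCGG, found in 6 (13.6%, against 5.62%). The GCC box GCCGCC was in 1 gene (2.27%, against 2.71%) and the G box CACGTG in 0, against 8.98%. These are matches of letters and say nothing of binding.

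The L1 boxes that lie wholly before the start are shown with up to 20 bases on each side, because genes that carry them moved in different directions. Sequences are from the RefSeq TAIR10.1 genome, 5′ to 3′ on the strand of the gene, with the box in capitals (TACATTTA is the box read on the other strand). No coordinates are given, as the build behind the deposited table is not stated.
FDH, box at bases 54 to 47 before the start: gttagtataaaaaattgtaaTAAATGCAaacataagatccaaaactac
ABCG11, box at bases 82 to 75: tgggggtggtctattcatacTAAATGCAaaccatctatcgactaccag
ABCG11, box at bases 47 to 40: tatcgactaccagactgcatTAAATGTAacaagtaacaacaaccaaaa
AT5G33370, box at bases 74 to 67: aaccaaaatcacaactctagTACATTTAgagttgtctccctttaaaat
KCS9, box at bases 76 to 69: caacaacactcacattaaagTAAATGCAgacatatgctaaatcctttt
MYB94, box at bases 165 to 158: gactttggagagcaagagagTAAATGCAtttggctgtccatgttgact
MYB96, box at bases 24 to 17: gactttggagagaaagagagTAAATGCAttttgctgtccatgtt

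FDH, ABCG11 and AT5G33370 fell, to 62.4%, 49.95% and 37.7% of their DMSO mean, KCS9 and MYB96 did not pass, and MYB94 rose. GPAT8 and ABCG12, whose boxes do not lie wholly before the start and are not shown, fell as well (log2 fold changes of -1.42 and -0.36). The windows of MYB94 and MYB96 are identical at 42 of 44 bases. In AT5G33370 the element TGTCTC follows the box, at bases 62 to 57 before the start. The element TGTCGG stands before 6 of the genes. For ABCG12, FDH, GPAT6 and CYP86A8 the log2 fold changes were -0.36, -0.68, -0.97 and -1.13. The other 2 are the alkane genes CER1 and MAH1, shown with the element in capitals.
CER1, element at bases 76 to 71 before the start: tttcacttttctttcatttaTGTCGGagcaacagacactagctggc
MAH1, element at bases 100 to 95: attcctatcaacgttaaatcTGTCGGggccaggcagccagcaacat

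Other surface lipid genes, in lists that are not part of the 46, did not move in 1 direction throughout. The counts of these lists stand beside 28.1% fallen and 29.6% risen over all listed genes, and no list was tested. Of 19 genes of fatty acid supply 13 fell and 4 rose (median -0.61). FATA (AT3G25110), which releases oleate from its carrier in the plastid, had 33.5, 32.1 and 31.2 RPM in DMSO and 13.5, 11.5 and 13.0 RPM in DEX. WRI3 (AT1G16060), an activator of fatty acid synthesis, fell from 15.6 ± 2.66 to 6.97 ± 0.698 RPM, whereas its relative WRI4 (AT1G79700), known to activate wax synthesis in stems, had 9.81, 7.99 and 7.74 RPM in DMSO and 82.3, 87.4 and 76.8 RPM in DEX (log2 fold change 3.13, adjusted p = 1.85e-13). FATB, LACS4 and FAX1 were the other genes of supply that rose.

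Among 8 listed further KCS genes 5 fell and KCS12 rose. KCS13 (AT2G46720), known for a part in stomatal number, had 39.9, 40.7 and 44.1 RPM in DMSO and 12.2, 11.3 and 11.5 RPM in DEX (log2 fold change -1.75, adjusted p = 3.01e-10). KCS3 (AT1G07720) fell from 21.8 ± 0.841 to 12.2 ± 2.47 RPM, and KCS12 (AT2G28630) rose from 45.5 ± 1.72 to 69.3 ± 3.25 RPM. Of 6 further wax genes CER1-L1 and CER26-L fell, CER7 and CER9 rose, and CER26 and CER16 did not pass. CER1-L1 (AT1G02190), the direct neighbour of CER1 and 66.6% identical to it in coding sequence, had 278, 313 and 308 RPM in DMSO and 180, 174 and 124 RPM in DEX (log2 fold change -0.93, adjusted p = 8.39e-07).

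Of 12 suberin-type genes 2 are listed, of which FAR1 (AT5G22500), a reductase that makes fatty alcohols, fell from 82.0 ± 5.57 to 39.9 ± 0.472 RPM and ABCG20 did not pass. Of 10 lipid transfer and acyl-CoA-binding proteins 4 fell and 4 rose, against 28.1% and 29.6% of all listed genes. ACBP2 (adjusted p = 0.0246) and ACBP6 (adjusted p = 0.0235), which are among those that rose, overlapped between the groups. The number of these 10 that passed was 6 in place of 8 without the trend and without DMSO-2. LTPG6 (AT1G55260) fell from 81.0 ± 7.14 to 40.7 ± 2.89 RPM and the transporter ABCG13 (AT1G51460), which serves petal cutin, from 61.3 ± 3.25 to 33.0 ± 2.54 RPM. ACBP3 (AT4G24230), an acyl-CoA-binding protein, rose from 8.07 ± 1.17 to 78.2 ± 5.59 RPM.

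Of 9 further regulators of epidermis and wax 5 fell and 3 rose. DEWAX (AT5G61590), a repressor of wax genes known to be raised in the dark, had 29.7, 25.7 and 25.9 RPM in DMSO and 92.4, 97.6 and 91.6 RPM in DEX (log2 fold change 1.76, adjusted p = 1.46e-11). The other 2 that rose were DEWAX2 and CFL1, of which CFL1 overlapped between the groups (adjusted p = 0.0360). SPL9 (AT2G42200), which works against DEWAX on a wax gene, fell from 71.2 ± 4.80 to 34.6 ± 6.69 RPM. HDG2 (AT1G05230), a relative of ATML1 that is also among the 5 epidermal markers, fell from 28.8 ± 0.863 to 14.8 ± 2.54 RPM. PDF2, HDG1 and ANL2 were the others that fell. ATML1 and PDF2 are epidermal markers too, so the counts of the regulators and of the markers share genes.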

How the data were processed

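RNA-seq values of 6 libraries (3 DMSO, 3 DEX) were used as deposited by the authors in RPM, scaled so that each library sums to 1000000 over 17675 listed genes. Per the submitters' processing notes the tools were TopHat and HTSeq; no source used here gives their versions, a genome build or strand setting. Groups and replicate numbers come from the library titles. The planned minimum of 1 RPM in 3 libraries is met by every row and removed none. RPM values were whole multiples of 1 read (100% within 0.01 reads), which gave whole reads for count tests; 3 reads equal 0.207 to 0.280 RPM, and such floors cover counting error only.

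The main test was limma 3.58.1 (R 4.3.3) with an intensity trend on log2(RPM + 1), two-sided. Nothing says that replicates came from separate plants, so p-values cover the spread of these samples alone, possibly a technical one. No pair of replicates was within counting noise (chi-square over its degrees of freedom, 2.80 to 12.0). The pairs of DEX-3 with DEX-1 and DEX-2 gave 10.45 and 11.99, whereas DEX-1 with DEX-2 gave 2.80. The procedure was also run on simulated counts with far fewer changed genes than passed here, so that run gives no error rate for these data. Members and gene lists were chosen with earlier results of these data known. Values in each library are given for members past the threshold by at least 1 on the log2 scale, for the 2 largest differences in a role group with fewer such members, and for 10 set genes (SHN1, SHN2, SHN3, MYB106, MYB16, CER1, CER3, CER6, BDG1 and HTH); MYB94 enters as a largest difference of the regulators. From other lists up to 3 genes past the threshold are named by size of change. Others named were chosen after their values were seen, among them MYB96 by library, ATML1, CYP77A4, neighbouring genes, and pairs set in ratio. Alternatives were edgeR 4.0.16 and DESeq2 1.42.0 on recovered reads, other pseudocounts, minimums, scalings and limma settings, a replicate block, and leaving out each library.

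Members were matched by locus and carry their common literature names, which for some differ from the RefSeq symbol. Exon length, promoters and coding sequences are from RefSeq TAIR10.1, which holds 17646 of the listed genes and all 46 members. Protein and promoter tables planned for were not at hand, so promoters and coding sequences were cut from that genome by its own annotation.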

Additional observations from a re-analysis of the deposited data

How the results depend on the processing

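Under 11 other settings and with each of the 6 libraries left out, 34 to 35 cuticle genes fell and 1 rose. With a log2 fold change of at least 1 also required, 21 fell with the pseudocount of 1 RPM. With 5 RPM added CER4 (-0.87), KCS2 (-0.90), CER2 (-0.94) and ABCG32 (-0.95) no longer reached that size. With 0.1 RPM added ABCG11 (-1.01) reached it. The count of regulators that fell was 0 in limma without the trend, in limma with robust moderation and with DESeq2, and 0 to 1 with 1 library left out, because SHN1 was lost; the cause was not tested. CYP77A4 was gained in limma without the trend (-0.43, adjusted p = 0.0401) and without DEX-3 (-0.51, adjusted p = 0.0468). No other of the 44 genes changed its call and no called gene changed its direction under the alternatives it was in; CYP77A4 and SHN3 are not in the fit with a minimum of 5 RPM. With a minimum of 5 RPM, 1 tapetum marker was called in place of 3. AT4G28780 ranged from -3.51 to -2.50 and MAH1 from -2.69 to -1.27, lowest in size with 5 RPM added. Over all genes 9072 to 10412 passed with 1 library left out and 9141 to 10255 under the other settings. The replicate numbers were not treated as pairs, since deviations from the group mean in same-numbered libraries correlated at -0.047, 0.062 and 0.029 over all genes. With the number as a replicate block 35 cuticle genes fell, 1 rose, and 10255 genes passed. The 2 members outside the table limit what can be said of the regulators.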
